A study of Mus musculus with 24 samples.

Results

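The genes described here build the brush border of intestinal epithelial cells, and the measurement is where the transcription factor Cdx2 was found on chromatin around them in mouse colon organoids. The 10 genes are Vil1, Ezr, Myo1a, Cdhr2, Cdhr5, Ush1c, Espn, Eps8, Pls1 and Myo7b. Their Cdx2 regions were chosen by position only: a region was taken when the summit of a peak lay in the gene body or within 20 kb of either end, in the GENCODE vM21 annotation of mm10. Peaks from 12 Cdx2 libraries were merged wherever they overlapped, which gave 61454 regions in the genome, and 50 of them (282 peaks) belonged to these genes. No enrichment value entered that rule, though the genes were listed with earlier results of these data known.

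All 12 libraries came from organoids, cultured epithelial structures grown from colon stem cells, of female mice 8 weeks old. Every line carried 1 copy of a Cre-inducible BrafV600E allele, which expresses normal Braf until Cre acts, and 1 copy of a tdTomato reporter. All libraries therefore carried both, and the sample labels name no Cre treatment and no gene edit. The organoids were taken from the first 1 cm (proximal) or the last 1 cm (distal) of the colon of 3 mice and grown for 4 months with WENR-plus medium. That medium supplies Wnt3a, EGF, Noggin and R-spondin. In the WENR-minus groups they then had 2 days in that medium and 3 days without the 4 niche factors. Site and medium make 4 groups, called by both names (proximal WENR-plus and so on), with 3 Cdx2 libraries each, labelled as biological replicates. Long culture and a medium that favours stem cells limit these organoids as a model of the mature colon surface, and peak lists hold no expression by which the cell types could be checked. The 12 matched input samples were not analysed here.

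The brush border is the carpet of microvilli on the apical face of enterocytes and colonocytes. Each microvillus has a core of parallel actin filaments, held together by bundling proteins (villin from Vil1, fimbrin or plastin 1 from Pls1, espin from Espn) and capped at its tip by Eps8. Ezrin (Ezr) and the motor myosin 1a (Myo1a) tie that core to the plasma membrane. At the tips, the protocadherins Cdhr2 and Cdhr5 join neighbouring microvilli into an ordered array, anchored inside by the scaffold harmonin (Ush1c) and the motor myosin 7b (Myo7b). Cdx2, a homeobox factor of the intestinal epithelium, binds DNA with an A/T-rich core.

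Cdx2 was found at 9 of the 50 regions in all 12 libraries (18%, against 3.38% of all 61454 regions). These 9 lay at 6 genes: 3 in Eps8, 2 in Pls1 and 1 each at Vil1, Cdhr5, Ush1c and Myo7b. In bulk organoids, binding in fewer cells and weaker binding in each cell cannot be told apart. The sequences under 8 of them are shown because they are sites that all 12 libraries shared. That of the Myo7b region is not printed here. Each is the 101 bases centred on the median summit, from the GRCm38 assembly and read on the strand of the gene. Capitals mark the Cdx2 core, searched on both strands in 4 spellings: the first was TTTATGA, the second was TTTATGG, the third was TTTATTA and the last was TTTATTG. A core on the other strand appears as its reverse complement, for example TCATAAA.
Vil1, chr1:74408784-74408884, plus strand: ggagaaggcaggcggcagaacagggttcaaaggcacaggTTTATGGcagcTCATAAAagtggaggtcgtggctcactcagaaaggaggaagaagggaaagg
Cdhr5, chr7:141276797-141276897, minus strand: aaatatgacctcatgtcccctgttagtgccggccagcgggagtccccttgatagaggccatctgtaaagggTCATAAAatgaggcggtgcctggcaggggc
Ush1c, chr7:46236456-46236556, minus strand: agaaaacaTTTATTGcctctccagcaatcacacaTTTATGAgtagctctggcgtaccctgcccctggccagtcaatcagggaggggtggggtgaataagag
Pls1, chr9:95815925-95816025, minus strand: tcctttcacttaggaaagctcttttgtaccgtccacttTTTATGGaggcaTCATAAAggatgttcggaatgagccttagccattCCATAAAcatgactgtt
Pls1, chr9:95795222-95795322, minus strand: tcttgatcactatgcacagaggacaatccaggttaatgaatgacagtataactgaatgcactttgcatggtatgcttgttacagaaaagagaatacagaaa
Eps8, chr6:137544327-137544427, minus strand: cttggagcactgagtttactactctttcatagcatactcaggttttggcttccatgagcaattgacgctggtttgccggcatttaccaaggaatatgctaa
Eps8, chr6:137550112-137550212, minus strand: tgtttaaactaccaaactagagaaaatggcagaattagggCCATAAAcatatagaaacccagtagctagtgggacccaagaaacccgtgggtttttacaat
Eps8, chr6:137597841-137597941, minus strand: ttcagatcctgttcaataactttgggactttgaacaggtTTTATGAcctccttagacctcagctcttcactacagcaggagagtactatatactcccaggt

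The core lay within 50 bp of the median summit in 7 of the 9 shared regions, and the shared regions of the whole genome had it in 73.6% of 2079. Vil1 had 2 cores on opposite strands, one on each side of the summit, the Ush1c window held 2 and the stronger Pls1 window held 3, while the other Pls1 window and the first Eps8 window had none of the 4 spellings. Over all 50 regions the core was found in 23 (46%), against 60.4% of all regions, and in 14 of the 29 that were called in 3 or more libraries (48.3%), against 68.9%. At a position 1000 bp from the summit the core was found at 8% of the 50 and at 11.7% of all regions. The GATA core AGATAA, searched on both strands in the same windows, was found in 0 of the 50 and in 9.93% of all regions. A match says only that these letters stand in the window.

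The 50 regions were spread unevenly over the genes. Eps8 had 14, Pls1 10 and Myo7b 8. Vil1, Ezr and Myo1a each had 4, Cdhr2 and Ush1c 2, and Cdhr5 and Espn 1. Counted over the 952.83 kb of the 10 windows together, the density was 5.25 regions per 100 kb, against 2.25 for the genome. Per gene it ran from 1.39 per 100 kb at Espn to 7.54 at Pls1. Introns of the gene itself held 27 of the 50 regions, its exons 4, other genes in the window 7 and intergenic sequence 12. Of the 9 shared regions, 7 lay in introns of the gene and 2, at Vil1 and Cdhr5, just upstream of it.

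**Figure D1:**
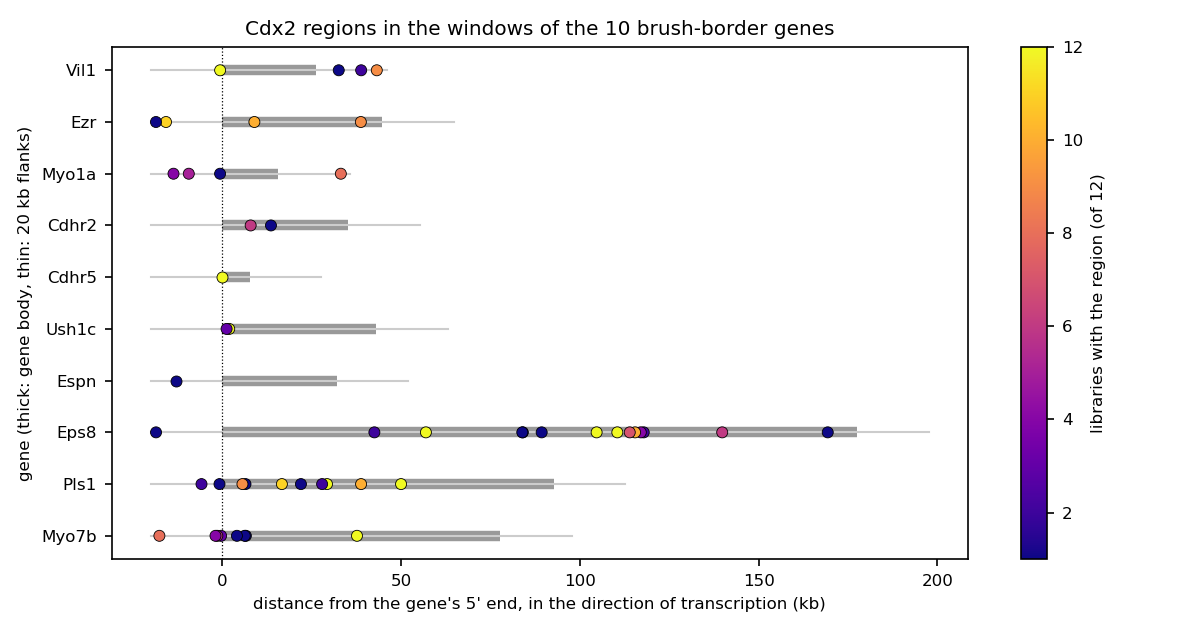
Position of the 50 Cdx2 regions along the 10 genes. The horizontal axis is the distance of the summit from the 5′ end of the gene in kb, read in the direction of transcription, each point is a region, and its colour gives the number of libraries out of 12 in which it was called. The 9 yellow points lie at Vil1, Cdhr5, Ush1c, Eps8, Pls1 and Myo7b, close to the 5′ end in the first 3 of these and 29.3 to 110.5 kb inside the gene body in the others.

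All 10 genes had at least 1 region in at least 1 library. At least 1 region shared by all 12 libraries was present at 6 of the 10, against 7.72% of 21938 protein-coding genes. For 4 of the 10 (Vil1, Cdhr5, Ush1c and Pls1) such a region lay within 3 kb of one of the gene's own annotated start sites, against 1.28% of protein-coding genes. The windows of the 10 genes were longer than those of protein-coding genes at large, with medians of 79.2 kb and 57.4 kb. Of the 50 regions, 21 were called in only 1 or 2 libraries (42%, against 57.9% of all regions).

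The shared brush-border regions ranked below the typical shared region. MACS2 fold enrichment, the pileup at the summit relative to the background of the input, was ranked within each list, so that a percentile of 100 is the strongest peak of that library. The median percentile of the 9 shared regions was 79.8, against 88.3 for all 2079 regions shared by the 12 libraries. Regions called in 3 to 11 libraries had a median percentile of 52.3 at these genes (20 regions) and 49.5 in the genome. Those called in 1 or 2 libraries were at 26.1 and 26.4. The stronger Pls1 region (median percentile 97.4), the Myo7b region (92.9) and the Ush1c region (84.5) led the 9, and the third Eps8 region (54.5) was the lowest.

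**Figure D2:**
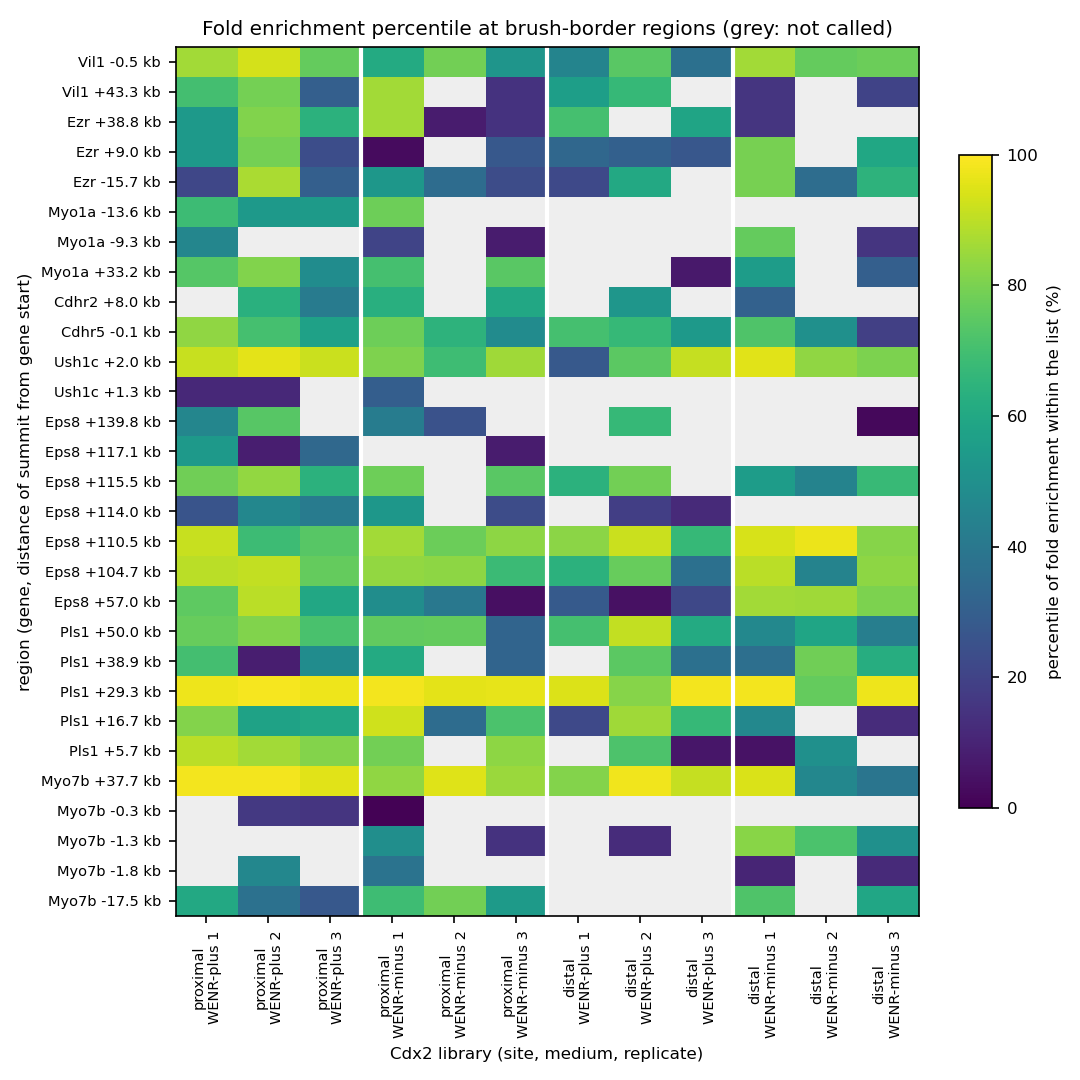
Within-list percentile of fold enrichment (colour, 0 to 100%) for the 29 regions called in 3 or more libraries, one row each, named by gene and by the distance of the summit from the 5′ end in kb. Columns are the 12 libraries in their 4 groups, and grey means that no peak was called. The Pls1 row at +29.3 kb stays between 76.3 and 98.7% in all 12 libraries, whereas the rows of Ezr, Myo1a, Cdhr2 and the 5′ flank of Myo7b have gaps, most of them in distal libraries and in replicate 2 of proximal WENR-minus.

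Among the actin bundling genes, Vil1 had its shared region 542 bp upstream of its start site (chr1:74408460-74409166), in intergenic sequence. Fold enrichment there was 8.56, 11.6 and 9.0 in proximal organoids and 6.17, 7.82 and 5.97 in distal organoids under WENR-plus, and it was 5.63, 8.14 and 6.25 in proximal organoids and 8.07, 7.49 and 8.04 in distal organoids under WENR-minus. The 3 proximal WENR-plus values were the highest of the 12 on this raw scale, and the other 3 groups overlapped. With each library centred on its median over the shared regions, the proximal and distal WENR-plus values overlapped. The 3 proximal WENR-minus values then lay below the 3 distal WENR-minus values. The core was found near the summit of the library's own peak in 11 of the 12. The other 3 Vil1 regions lay past the 3′ end, all in introns of Usp37, so they cannot be assigned to either gene by position. The farthest of them (chr1:74452329-74452891) was called in 9 libraries, and the remaining ones in 1 and 2.

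Pls1 had the strongest Cdx2 region of the 10 genes (chr9:95815390-95816480). It lay in an intron 29.3 kb from the 5′ end of the gene and 569 bp upstream of an annotated internal start site. Fold enrichment was 15.4, 21.0 and 21.1 in proximal organoids and 12.3, 8.76 and 17.5 in distal organoids under WENR-plus, and it was 18.5, 14.8 and 17.4 in proximal organoids and 15.2, 7.49 and 16.1 in distal organoids under WENR-minus. Replicate 2 gave the lowest value of each distal group, and the other 10 libraries lay above the 90th percentile of their lists. All 12 summits had the core within 50 bp. The region was kept in all 12 lists when each was shortened to its 5608 strongest peaks by p-value, the length of the shortest list.

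The second shared Pls1 region (chr9:95794759-95795500), in an intron 50.04 kb from the 5′ end, was weaker. Its fold enrichment was 6.97, 7.52 and 8.22 in proximal organoids and 7.49, 10.7 and 7.25 in distal organoids under WENR-plus, and it was 6.72, 7.78 and 5.18 in proximal organoids and 5.16, 6.31 and 5.59 in distal organoids under WENR-minus. The 3 distal WENR-plus values were all above the 3 distal WENR-minus values, and the proximal groups overlapped. None of its 12 summits had the core. Pls1 had 3 further regions called in 9, 10 and 11 libraries, all intronic, 5.69, 38.9 and 16.7 kb from the 5′ end. At the gene's 5′ end itself, 719 bp upstream, a peak was called in 1 library of distal WENR-plus only.

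Espn was the gene with the fewest calls. A single peak, in 1 distal WENR-plus library, lay 13.0 kb upstream (chr4:152165302-152165431), and the nearest start site of a coding gene was that of Hes2, 5833 bp away. Its fold enrichment was 5.12, at percentile 17.1 of that list. No call was made in the body of Espn.

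Eps8, which caps the filament tips and also bundles actin, had the most regions, 14 over a window of 217.6 kb. Its 3 shared regions were all intronic, 57.0, 104.7 and 110.5 kb from the 5′ end of the gene. At the +110.5 kb region (chr6:137543943-137544499) fold enrichment was 10.1, 6.22 and 8.61 in proximal organoids and 8.82, 11.1 and 7.68 in distal organoids under WENR-plus, and it was 8.60, 8.0 and 9.63 in proximal organoids and 10.7, 13.4 and 8.48 in distal organoids under WENR-minus. On the raw scale the 4 groups overlapped, and every library was at percentile 67.0 of its list or higher. Centred on the library medians, the proximal values lay below the distal ones in both media. In WENR-minus the gap was narrow (highest proximal -0.054, lowest distal -0.043), and neither site difference was called by limma. At the +104.7 kb region (chr6:137549832-137550541) fold enrichment was 9.51, 10.03 and 9.0 in proximal organoids and 7.05, 8.0 and 5.97 in distal organoids under WENR-plus, and it was 8.06, 8.84 and 7.40 in proximal organoids and 8.96, 5.58 and 8.74 in distal organoids under WENR-minus. The 3 proximal WENR-plus values were again the highest on the raw scale. Centred on the library medians, the 4 groups at this region overlapped.

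The third Eps8 region (chr6:137597552-137598213, +57.0 kb) was the weakest of the 3 by median fold enrichment, 6.14. Fold enrichment was 6.76, 9.47 and 7.05 in proximal organoids and 5.47, 4.13 and 5.41 in distal organoids under WENR-plus, and it was 4.88, 5.52 and 3.84 in proximal organoids and 8.07, 8.68 and 8.39 in distal organoids under WENR-minus. The 3 distal WENR-minus libraries were all above the 3 proximal WENR-minus libraries, and above the 3 distal WENR-plus libraries. Near an internal Eps8 start site, 4 more intronic or exonic regions lay within 3 kb (113.97 to 117.9 kb from the 5′ end), called in 2, 4, 7 and 10 libraries.

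Ezrin and myosin 1a, the links between core and membrane, had no region in all 12 libraries. For Ezr the most widely called region (chr17:6798137-6798804, 11 libraries) lay 15.7 kb upstream, in an exon of the annotated gene Gm2885. It was missing only from replicate 3 of distal WENR-plus, and fold enrichment in the other libraries ran from 4.35 to 8.78. In the gene body, an intronic region 9.04 kb from the 5′ end (chr17:6773550-6773907) was called in 10 libraries and one 1164 bp upstream of an internal start site (chr17:6743754-6744161) in 9. The latter was called in 6 of 6 proximal and 3 of 6 distal libraries. These 3 Ezr regions had median percentiles of 32.0 to 58.3, and the fourth, called in 1 library, was at 16.6.

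Myo1a was flanked by its regions rather than covered. No summit fell in the gene body. The region in most libraries (chr10:127738093-127739109, 8 libraries) was in intergenic sequence past the 3′ end, 1163 bp from the start site of Zbtb39 and 19.0 kb from the nearest start site of Myo1a. A peak 553 bp upstream of the Myo1a start site was called in 1 proximal WENR-minus library. The remaining 2 regions were upstream in introns of Nemp1, called in 4 and 5 libraries.

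The 4 genes of the intermicrovillar adhesion complex differed from each other. Cdhr5 had a single region, and it covered the start site: the median summit was 61 bp upstream (chr7:141276659-141277073) and all 12 libraries had it. Fold enrichment was 7.92, 6.27 and 6.91 in proximal organoids and 7.49, 7.11 and 6.83 in distal organoids under WENR-plus, and it was 6.99, 6.72 and 5.92 in proximal organoids and 6.46, 5.92 and 4.66 in distal organoids under WENR-minus. On the raw scale the 3 distal WENR-plus values lay above the 3 distal WENR-minus values, and the proximal groups overlapped. Centred, the distal groups overlapped too (difference -0.31, limma adjusted p = 0.692). Its partner Cdhr2 had no shared region. An intronic region 7.995 kb from the 5′ end (chr13:54709059-54709747) was called in 6 libraries, 2 in each proximal group and 1 in each distal group.

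Ush1c had its shared region in an intron, 1958 bp downstream of the nearest own start site (chr7:46236221-46236957). Fold enrichment was 10.2, 14.1 and 14.4 in proximal organoids and 5.46, 7.82 and 11.5 in distal organoids under WENR-plus, and it was 7.43, 7.08 and 10.4 in proximal organoids and 11.6, 8.28 and 8.39 in distal organoids under WENR-minus. The groups overlapped, and the region stayed in all 12 shortened lists. A second peak 1225 bp from the start site was called in 3 proximal libraries and no distal one, at a median fold enrichment of 4.06.

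Myo7b carried its shared region deep in the gene, in an intron 37.7 kb from the 5′ end (chr18:31998798-31999754). Fold enrichment was 17.4, 19.4 and 17.6 in proximal organoids and 8.61, 16.0 and 11.5 in distal organoids under WENR-plus, and it was 7.95, 14.2 and 10.1 in proximal organoids and 10.97, 5.89 and 5.44 in distal organoids under WENR-minus. The 3 proximal WENR-plus values were the highest of the 12 on the raw scale, and the other groups overlapped. With the libraries centred, the highest value was 0.64 in replicate 2 of distal WENR-plus, beside 0.52 to 0.58 in proximal WENR-plus, so those groups overlapped. Near the start site, 3 regions 272, 1330 and 1836 bp upstream were called in 3, 6 and 4 libraries, so none was shared by all. The one at 1330 bp was called in 0 proximal and 1 distal WENR-plus libraries, and in 2 proximal and 3 distal WENR-minus libraries.

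The study compared proximal with distal colon and medium with and without niche factors, and the number of calls first had to be set against list length. In WENR-plus medium the proximal lists held 13592 to 42192 peaks and the distal lists 5608 to 13371. In WENR-minus medium they held 11409 to 27921 and 7895 to 21040. The 50 brush-border regions followed them. In WENR-plus medium a mean of 30 ± 5.57 (SD, n = 3) were called in proximal and 17.7 ± 2.52 in distal organoids, and in WENR-minus medium 24.7 ± 10.5 and 20 ± 5.57. In each of the 12 libraries a larger share of the 50 than of all regions was called, by 2.49 to 31.8 percentage points. Regions called in all 12 libraries count in every library by definition, and they were 18% of the 50 and 3.38% of all regions. Part of the excess was therefore fixed in advance, and it adds no separate support. The smallest excess was in replicate 2 of proximal WENR-minus, where 14 of the 50 (28%) were called although its list of 15940 peaks held 25.5% of all regions. Cut to the 5608 strongest peaks of each list, 26 of the 50 regions were left. Of the 9 shared regions, 4 then stayed in all 12 lists, those of Ush1c, Myo7b, Eps8 (+104.7 kb) and Pls1 (+29.3 kb).

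**Figure D3:**
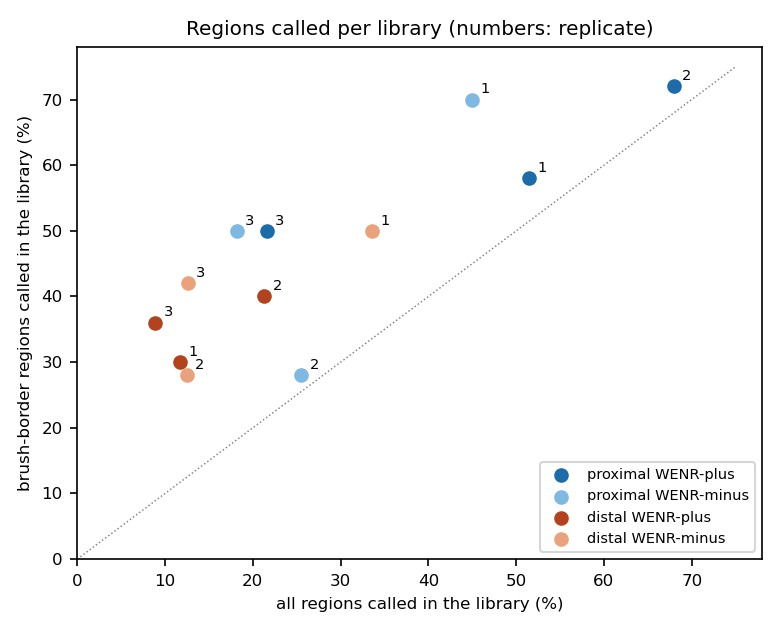
Share of the 50 brush-border regions (vertical axis, %) against the share of all 61454 regions (horizontal axis, %) called in each of the 12 libraries. Points are libraries, coloured by group and numbered by replicate, and the dotted line marks equal shares. All 12 points lie above the line, between 28 and 72% for the brush-border regions, with proximal WENR-minus replicate 2 closest to it. Part of that distance was fixed in advance, because regions called in all 12 libraries count in every point.

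Proximal and distal organoids in WENR-plus medium differed in calls at 3 of the 50 regions (6%), which were called in 3 of 3 proximal and 0 of 3 distal libraries. Among all regions 4.69% met that rule. The 3 were a Myo1a flanking region in an intron of Nemp1 (chr10:127691453-127691828, fold enrichment 5.33 to 6.99), an exonic Eps8 region 284 bp from an internal start site (chr6:137537567-137537940, 3.76 to 5.48) and a region 17.5 kb upstream of Myo7b (chr18:32053955-32055078, 4.70 to 8.14). For the Myo7b region the nearest start site of a coding gene was that of Iws1, 13257 bp away. That region was also called in 3 of 3 proximal and 2 of 3 distal WENR-minus libraries. None of the 50 met the rule in the opposite direction (0.15% of all regions). With lists cut to equal length, 0 of the 26 regions left were called in 3 proximal and 0 distal WENR-plus libraries, against 2.26% of 15216.

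In WENR-minus medium, 0 of the 50 regions were called in 3 of 3 libraries of one colon site and 0 of 3 of the other. The backgrounds were 2.04% for proximal and 0.334% for distal. With lists of equal length, 3 of the 26 regions left were called in distal WENR-minus only, at Ezr, Eps8 and Myo7b, against 1.34% of 15216 regions, so this count depended on list length. Between media, 0 of the 50 were gained or lost by this rule in either part of the colon. In proximal organoids 0.119% of all regions were called in WENR-minus only and 0.74% in WENR-plus only, and in distal organoids 0.41% and 0.129%.

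Levels could be compared at the regions called in all 12 libraries. Log2 fold enrichment was centred on the library's median over the 2079 shared regions and fitted with limma, with Benjamini-Hochberg adjustment over all 2079. One of the 9 brush-border regions passed, the Eps8 region at +57.0 kb. In WENR-minus medium it was lower in proximal than in distal organoids (log2 difference -1.13, SE 0.24, 95% interval -1.65 to -0.62, limma adjusted p = 0.0186). Its centred values were -1.31, -0.84 and -1.38 in proximal and -0.21, 0.14 and -0.06 in distal libraries, without overlap. Of all shared regions 0.818% were called lower in proximal and 2.21% higher, and without centring the split was 4 lower and 182 higher in place of 17 and 46, because the median shared region was then 0.30 higher in proximal. The Eps8 call remained without centring. It was lost when any of the 3 replicate numbers was left out, with differences from -1.20 to -0.96 on the log2 scale, and with the percentile as the measure, where the difference was -52.9 points (adjusted p = 0.250 in limma) and 2 of the 2079 regions were called.

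No other brush-border region passed the adjusted threshold in any of the 4 comparisons. In WENR-plus medium 0 of the 9 were called by limma, against 3.17% called higher and 2.65% lower in proximal among all shared regions, and 3 of the 9 had an unadjusted p under 0.05, all lower in proximal (205 higher and 243 lower of the 2079). Without centring the split over all shared regions was 362 higher and 4 lower in place of 66 and 55, with the median region 0.46 higher in proximal. The 3 were the second Pls1 region (-0.62, 95% interval -1.10 to -0.14, limma adjusted p = 0.119), the Eps8 region at +110.5 kb (-0.63, -1.18 to -0.08, limma adjusted p = 0.168) and the Cdhr5 promoter region (-0.51, -0.97 to -0.04, limma adjusted p = 0.192). Without centring they were -0.14 at Pls1, -0.16 at Eps8 and -0.03 at Cdhr5. The signs at Pls1 and Cdhr5 turned when the within-list percentile was the measure. That measure was not centred, and its median over all shared regions was 10.9 points higher in proximal. Both regions stayed below that median, at 2.24 points for Pls1 and 6.48 points for Cdhr5. In WENR-minus medium the Vil1 promoter region (-0.55, -1.02 to -0.08, limma adjusted p = 0.184) and the Eps8 region at +110.5 kb (-0.59, -1.14 to -0.04, limma adjusted p = 0.229) were also below zero in proximal relative to distal, and did not pass. Without centring these were -0.25 and -0.29. The median difference of the 9 was 0.07 in WENR-plus and -0.21 in WENR-minus, beside -0.02 and 0.00 over all shared regions, which the centring holds near zero. Without centring the medians of the 9 were 0.54 and 0.09, beside 0.46 and 0.30 over all shared regions. With centring, the WENR-plus median of the brush-border regions was -0.25 without replicate number 2 (11 regions) and -0.06 without number 3 (10 regions). Its sign was thus not stable, but the set of regions changed too, since a call was then needed only in the libraries left. The WENR-minus median stayed below zero without each replicate number (-0.15 over 9 regions, -0.34 over 11 and -0.30 over 10 for 1, 2 and 3). It was above zero without centring, and with percentiles at 5.90 points beside 2.71 over all shared regions.

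Withdrawal of niche factors gave no limma call at any of the 2079 shared regions in proximal or in distal organoids (0% in both, with 122 higher and 63 lower at unadjusted p under 0.05 in proximal and 116 and 109 in distal), and so none at the 9. With the replicate number as a block, limma called 1 shared region in proximal and 35 in distal organoids, and again 0 of the 9. At unadjusted p under 0.05, 0 of the 9 differed in proximal organoids and 3 in distal organoids, 1 higher and 2 lower in WENR-minus. The higher one was the Eps8 region at +57.0 kb (0.79, 95% interval 0.28 to 1.31, limma adjusted p = 0.220). The lower ones were the Myo7b region (-0.69, -1.29 to -0.08, limma adjusted p = 0.375) and the second Pls1 region (-0.52, -0.99 to -0.04, limma adjusted p = 0.392). In proximal organoids the Myo7b difference was -0.58 (-1.18 to 0.03, limma adjusted p = 0.581). The 95% intervals of these differences were about 1 log2 unit wide, so a p that missed the threshold does not show that the levels were alike.

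Whether the medium acted differently in the 2 parts of the colon was tested as the interaction of site and medium. No shared region passed (0% of 2079, with 53 above and 36 below zero at unadjusted p under 0.05). The Eps8 region at +57.0 kb was the one brush-border region with an unadjusted p under 0.05, at -1.28 (proximal minus distal response, SE 0.34, limma adjusted p = 0.998). It was 0.49 lower after withdrawal in proximal organoids (difference -0.49) and 0.79 higher in distal ones. The comparisons share libraries with each other, so these values are not independent of the site difference in WENR-minus.

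**Figure D4:**
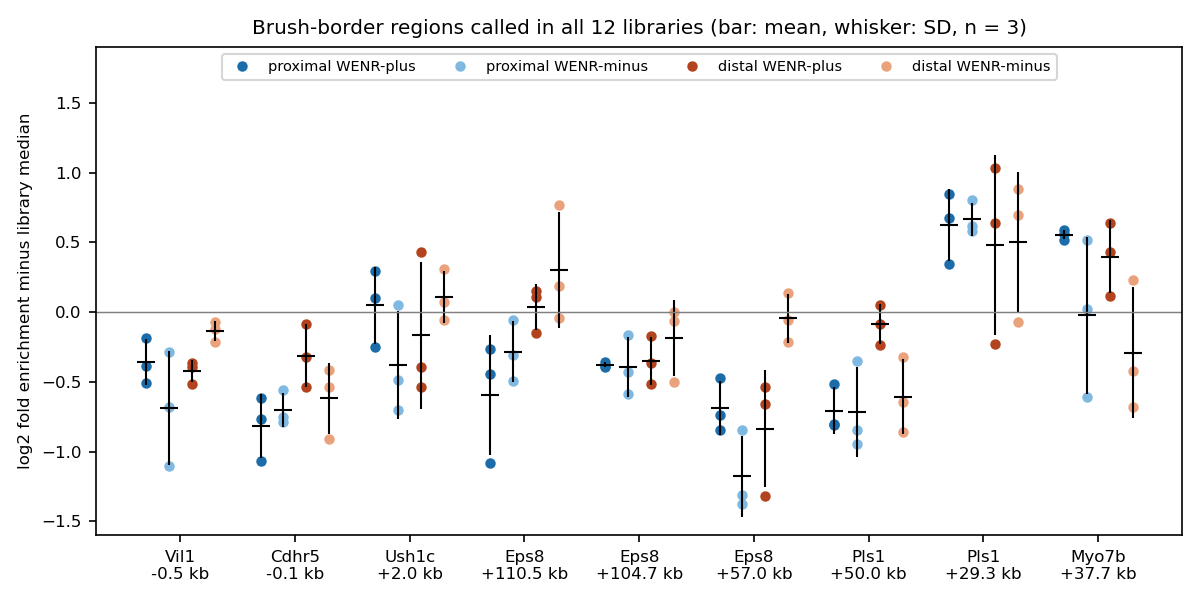
Log2 fold enrichment minus the library's median over the 2079 shared regions (vertical axis) at the 9 brush-border regions called in all 12 libraries, named by gene and distance from the 5′ end. Points are libraries coloured by group, bars are means and whiskers are SD (n = 3). The Eps8 region at +57.0 kb has its 3 distal WENR-minus points between -0.21 and 0.14, above the proximal WENR-minus points at -1.38 to -0.84, and the Pls1 region at +29.3 kb has the highest values of the 9 in most libraries.

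A further list of 20 brush-border genes, drawn up with earlier results of these data known, gave a frame for the 10. They were scaffold and adhesion proteins (Anks4b, Slc9a3r1, Pdzk1, Tmigd1), the calmodulin-like protein Calml4, beta-actin (Actb) and actin regulators (Baiap2l1, Baiap2l2, Cobl, Lima1, Twf2, Eps8l3). The list also held motors (Myo1d, Myo1e, Myo5b, Myo6), the ezrin relatives Rdx and Msn, and the ezrin kinases Stk10 and Slk. Of these 20, 19 had at least 1 region and 6 had a region in all 12 libraries (30%, against 60% of the 10 and 7.72% of protein-coding genes). Their windows were longer, with a median of 93.6 kb for the 20 against 79.2 kb for the 10 and 57.4 kb for protein-coding genes. The 6 with a region in all 12 libraries were Baiap2l1, Cobl, Myo1d, Myo1e, Lima1 and Eps8l3. Only Cobl, an actin nucleator, had it within 3 kb of its own start site (2336 bp, median fold enrichment 14.4, median percentile 96.2). At Baiap2l1, which links membrane and actin, the shared region lay 28.8 kb from the nearest own start site, with a median fold enrichment of 13.7. Baiap2l2 had no region. The ezrin relatives Rdx and Msn, like Ezr, had no region in all 12 libraries, and Rdx reached 9 libraries and Msn 1. Anks4b, the scaffold that joins Ush1c and Myo7b in the adhesion complex, had 4 regions, none in more than 6 libraries.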

How the data were processed

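Cdx2 ChIPmentation was measured in 12 libraries. Per the methods and the submitters' processing notes, reads were trimmed (Trimmomatic 0.39) by the authors, mapped to mm10 (Bowtie2 2.4.5) and cleared of duplicates (SAMtools 1.13), and each library had its peaks called by MACS2 2.2.7.1 against its matched input at q 0.01. The deposited lists give the fold enrichment (a ratio), −log10 p-value and −log10 q-value, a score and the summit offset of each peak. The lists hold no read depth, and thus no counting error, so a missing call is not absence of binding. The study's reporting summary gives depth per library, which was not used here. By it, every proximal WENR-plus library had more reads, and a larger share of them in peaks, than every distal WENR-plus library. Peaks overlapping by 1 bp were merged on chromosomes 1 to 19, X and Y with pandas 2.3.3. limma 3.58.1 (R 4.3.3, trended eBayes) fitted 4 group means to centred log2 fold enrichment at the 2079 regions called in all 12 libraries, with an adjusted p threshold of 0.05. It was also run on simulated data with independent noise between libraries, and no conclusion is drawn from that run. Calls between groups used 3 of 3 against 0 of 3 libraries, since an exact permutation test of 3 against 3 cannot go below 0.1. Sequences were read with pysam 0.24.0 from RefSeq GRCm38. By rule, each gene's most widely called region, every region in all 12 libraries and every region called in 3 against 0 were named. Other regions named, such as those nearest to start sites and further ones of Vil1, Ezr, Pls1, Eps8, Myo1a and Myo7b, were chosen after their values were seen. The genes and lists were chosen with earlier results of these data known. Whether replicate numbers mark the same mouse across groups is not given in the sources used here. p-values of the main fit treat the libraries as independent and measure the spread between them. Alternatives covered list length, peak stringency, merging, flanks, scaling, the replicate block and leaving out replicates.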

Additional observations from a re-analysis of the deposited data

How the results depend on the processing

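The Eps8 call in WENR-minus medium stayed with the replicate block (1 of 9 regions, as without it), which changed no call at these genes, although over all shared regions it raised the calls from 121 to 274 in WENR-plus and from 63 to 217 in WENR-minus, and gave 1 in proximal and 35 in distal organoids between media. Same-numbered libraries correlated in their deviations from -0.0098 to 0.57 (13 of 18 pairs over 0.1, 8 of 12 libraries best with their own number). The main fit nevertheless did not pair them, since the sources used here do not say that a number marks 1 mouse. Its p-values ignore any such link, and the paper reports that most variation in Cdx2 binding came from the independent mouse groups. The Eps8 call was lost with percentiles (0 called, the difference being -52.9 points), among peaks with −log10 q of at least 5 (0 called, the region no longer being in all 12 lists) and when a replicate number was left out (0 called each time). Over all regions called in every library left, leaving out number 1 or 2 gave 0 calls between sites (2474 and 2455 regions tested). Leaving out number 3 gave 147 in WENR-plus and 175 in WENR-minus, each of 3520. Without centring the calls were 366 and 186, each of 2079. Among regions called in the 6 lists compared they were 81 of 2911 and 114 of 3305. With percentiles the WENR-plus site differences turned to 6.48 points at Cdhr5 and 2.24 points at Pls1, beside a median of 10.9 points over all shared regions. Over all shared regions 1 and 2 were then called between sites and 1 between media in distal organoids.

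Lists of equal length left 26 regions, 4 of them in all 12 lists, and 2 genes with one within 3 kb of a start site, and peaks with −log10 q of at least 5 also left 2 such genes. The proximal-only calls in WENR-plus were 0 with equal lists, 1 with a 10 kb flank, 5 with a 50 kb flank and 4 to 6 without a replicate number, where 2 of 2 against 0 of 2 was asked. For directions with 0 such calls, equal lists gave 3 distal-only regions in WENR-minus (1.34% of all 15216 regions) and 1 WENR-minus-only region in distal organoids (0.762%), the latter also 1 at −log10 q of 5. The 50 kb flank gave 1 distal-only region in WENR-minus, 1 lost on withdrawal in proximal organoids and 1 gained in distal ones. Without a replicate number these counts were 1 to 2 for proximal-only regions in WENR-minus, 0 to 2 gained and 1 to 2 lost in proximal organoids, and 0 to 4 gained and 0 to 1 lost in distal organoids. At single regions, only differences of at least 0.5 log2 units in the main fit were recomputed, and of these only the Eps8 one between sites in WENR-minus had been called. Among the recomputed values, 81 kept their direction and side of the threshold, 4 lost the call and 2 reversed. The selection favours a kept direction, and the replicate block leaves the difference itself unchanged. Peak lists hold no depth and the reported depths were not used, so no limit on binding can be set where no peak was called.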
